A study of Mus musculus with 6 samples.

Results

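The genes described here act in mitosis, from the switch that starts it to the separation of the daughter cells, and many of their products sit on the kinetochore, the protein plate that ties a chromosome to the spindle. The list held 48 gene symbols, with the Kif-named kinesin motors left out. It names genes by their role and uses no threshold on measured values, but it was drawn up with earlier results of these data known. Of the 48 genes, 47 were measured, among 19938 genes that had a probe set with a single gene symbol. Where a gene had more than 1 such probe set, the brightest on average across the 6 arrays was used, which among these genes concerned Top2a alone. Ccnb1, the cyclin B1 gene, had no single-symbol probe set in the array annotation used here and was not analysed here.

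The RNA came from neocortices dissected at embryonic day 14.5 from 6 mouse embryos, and each embryo was hybridised to its own Affymetrix Mouse Gene 1.0 ST array. The 3 controls were wild type for Bcl11a (Bcl11a+/+), and the 3 mutants were homozygous for a floxed Bcl11a allele in its deleted state (Bcl11aΔflox/Δflox). RNA was prepared from each embryo on its own, so the arrays of a group are biological replicates. The labels used here name neither the Cre driver nor the cell types with the deletion, and they give no strain and no sex.

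At this stage the neocortex holds dividing progenitors at the ventricle and neurons that have left the cell cycle. Radial glia divide at the ventricular surface, and intermediate progenitors divide in the subventricular zone. Cells enter mitosis when Cdk1 with its cyclin partners is switched on, chromosomes attach to spindle microtubules through the kinetochore, and the spindle assembly checkpoint holds the cell until every kinetochore is attached. The anaphase-promoting complex then marks cyclin B and securin for destruction, the sister chromatids part, and the cell divides at the midzone of the spindle. Most of these genes are transcribed in a burst in G2 and mitosis, which in many cases depends on a CHR element and CCAAT boxes near the start of the gene, bound by the DREAM and B-Myb complexes and by NF-Y.

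Promoters were read first, because array values do not enter the counts of these motifs. The genes were named by role and not by motif. Since many mitotic genes are known for these motifs, a high share describes the list and is not a new result. RefSeq sequences of build GRCm38.p6, from 250 bases before to 50 bases after a start site, were used for 39 of the 47 genes, with 42 promoters. For the listed genes, promoters on 1 chromosome were left out, but the counts over all promoters kept that chromosome. The CHR was searched as TTTGAA or TTCGAA and the CCAAT box as CCAAT, on both strands. In these promoters 1 CHR match, in Cdca8, shared a base with a CCAAT box, and 1 pair of CCAAT boxes overlapped, in Ube2c upstream of the stretch printed here. A CHR match was found in 32 of the 42 promoters (76.2%), against 6316 of 32851 promoters of all genes (19.2%). A CCAAT box was found in 34 of the 42 (81.0%), against 37.4% of all promoters. Both were present in 30 of the 42 (71.4%), against 7.52% of all promoters. The E2F site, searched as TTTCGCGC or TTTGGCGC, was found only in the promoters of Cdk1 and Ncapd2, or 4.76%, against 0.813%. A match describes the letters in the window and is not evidence of binding.

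The 150 bases before the start site are shown for 4 genes whose RefSeq start has no annotated start further upstream: Cdk1, Cdc20 and Ube2c, which carry both motifs there, and Mad2l1, which has neither. Each is written 5′ to 3′ on the strand of the gene, and capitals mark CHR and CCAAT matches, where ATTGG and TTCAAA are matches on the opposite strand. The stretches lie at chr10:69352913-69353062 on the minus strand for Cdk1, chr4:118437344-118437493 on the minus strand for Cdc20, chr2:164769779-164769928 on the plus strand for Ube2c and chr6:66535071-66535220 on the plus strand for Mad2l1.
Cdk1: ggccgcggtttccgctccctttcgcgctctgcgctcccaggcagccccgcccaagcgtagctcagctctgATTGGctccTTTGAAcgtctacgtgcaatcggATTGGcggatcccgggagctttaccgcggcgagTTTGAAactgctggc
Cdc20: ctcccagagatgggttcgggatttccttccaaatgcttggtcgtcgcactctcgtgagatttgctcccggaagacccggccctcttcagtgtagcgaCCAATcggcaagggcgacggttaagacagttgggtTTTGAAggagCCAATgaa
Ube2c: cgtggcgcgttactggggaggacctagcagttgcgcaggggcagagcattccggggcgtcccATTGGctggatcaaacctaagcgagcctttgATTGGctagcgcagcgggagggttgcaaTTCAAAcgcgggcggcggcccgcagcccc
Mad2l1: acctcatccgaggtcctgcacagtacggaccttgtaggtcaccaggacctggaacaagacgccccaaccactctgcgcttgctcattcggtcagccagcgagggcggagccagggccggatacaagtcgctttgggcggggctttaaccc

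Of 43 CHR matches in these promoters, 22 began before the start site and 21 at or after it, and the median position was -5 bases. The 77 CCAAT boxes lay further upstream, with a median position of -71 bases. In 30 promoters a CCAAT box preceded a CHR, with a median of 28 bases between the closest pair, and in 18 of them that gap was between 15 and 45 bases. Taking the closest pair favours short gaps, and the gap was not measured in promoters of other genes. Bub3, Ect2 and Prc1 each have a pair of overlapping promoters in these counts, so their matches were counted in both. Birc5, Mad2l1, Ncaph, Nuf2, Nusap1 and Pttg1 had none of the motifs in this window.

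**Figure D1:**
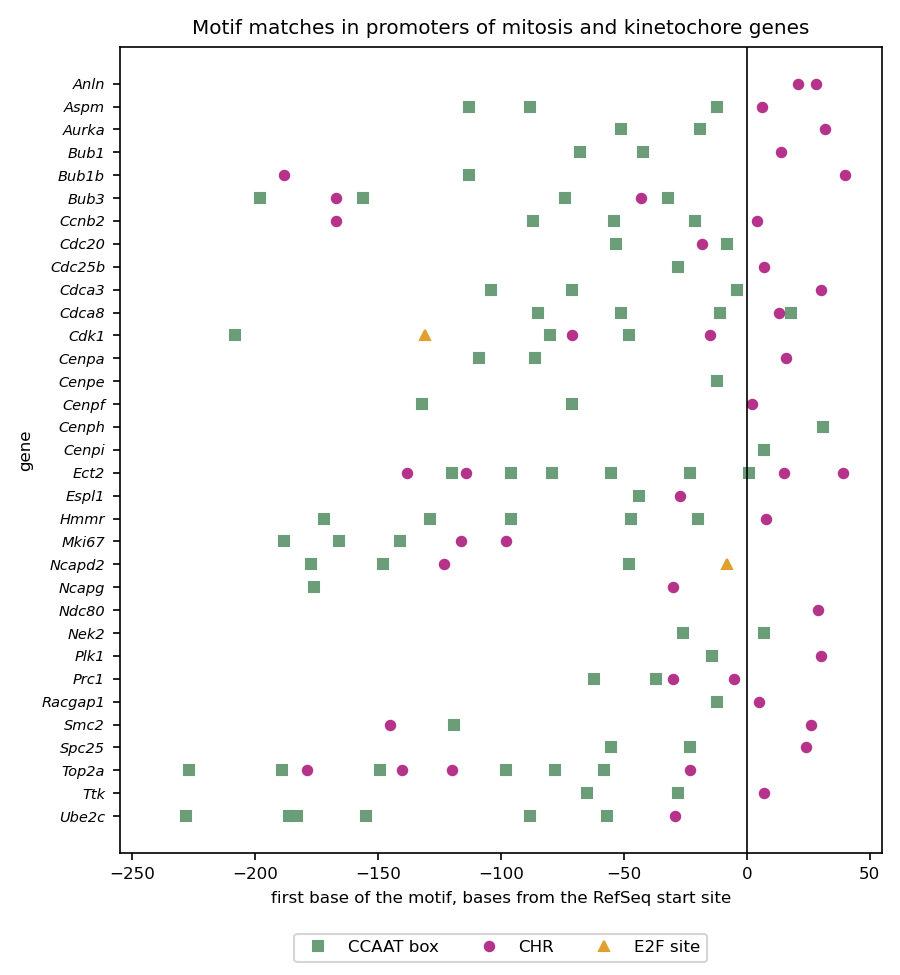
Position of each motif match in the promoters of 33 mitosis and kinetochore genes (rows), in bases from the RefSeq start site at 0 (x axis); squares are CCAAT boxes, circles CHR elements and triangles E2F sites. The circles cluster around the start site and most squares lie upstream of it.

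The deleted gene itself was lower in the mutants. Bcl11a (Entrez 14025) read 12.20, 12.30 and 12.26 on the log2 scale in controls 1 to 3 and 11.41, 11.49 and 11.34 in mutants 1 to 3, a log2 difference of -0.84 with a limma adjusted p of 0.00201. The neocortex was recognised by Emx1, Emx2, Lhx2, Tbr1 and Neurod6, which lay between 9.77 and 12.68 on all arrays.

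None of the 47 mitosis and kinetochore genes passed an adjusted p under 0.05 in limma's moderated test of mutants against controls. Their adjusted p-values ran from 0.819 upward. Over all genes 49 rose (0.246%) and 8 fell (0.0401%) at a limma adjusted p under 0.05, together 0.286% of those tested. At an unadjusted p under 0.05 there was 1 mitosis gene, Cenpa, or 2.13%, lower in the mutants. Of all genes 6.05% passed that mark, and 1.52% passed it and were lower. The differences were small and mostly on 1 side: 41 of the 47 were below 0, where 39.7% of all genes were, and the median log2 difference was -0.06 against 0.019 for all genes. A median of -0.06 corresponds to 1.04-fold. Scaling moves the share for all genes: with median centring of the arrays 60.8% of all genes were below 0, and 45 of the 47 mitosis genes were. Median centring shifts every difference alike, so the distance between the 2 medians, -0.079, could not change with it. That distance was -0.047 with array weights. When single arrays were left out it lay between -0.105 (without mutant 1) and -0.049 (without mutant 3).

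The 95% confidence intervals bound the size of any change. For 46 of the 47 genes the interval lay within 1.5-fold in either direction, and for 40 within 1.25-fold. Leaving out Pttg1, the lowest bound was -0.39 for Mki67, or 1.31-fold lower, and the highest was 0.27 for Cdc25b, or 1.20-fold higher. These intervals are for single genes and are not adjusted for the number of genes. Standard errors had a median of 0.072 on the log2 scale, close to the 0.074 of all genes, and all 47 genes lay above the 25th percentile of the mean log2 values.

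**Figure D2:**
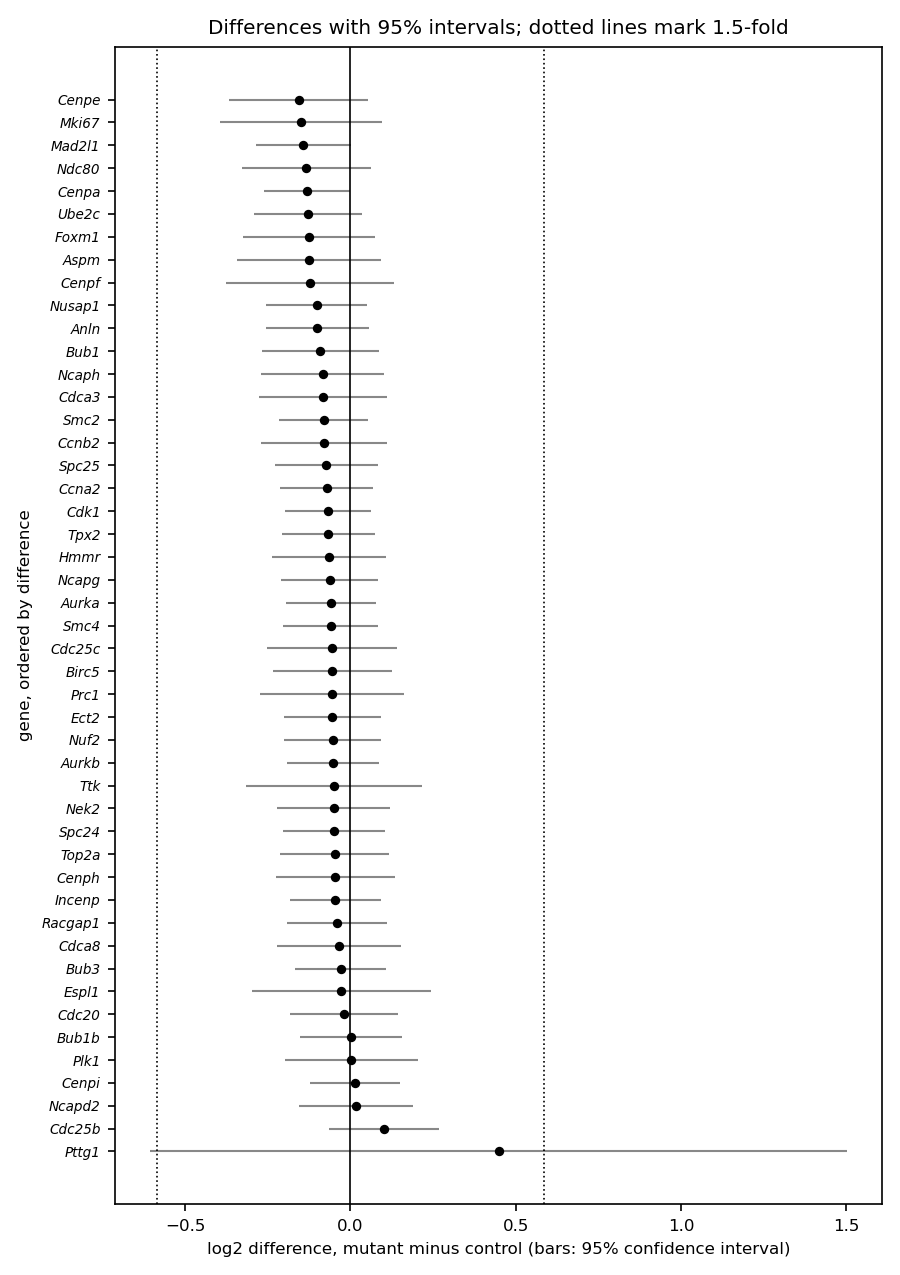
Log2 difference of mutant minus control (x axis) for each of 47 genes (rows, ordered by difference), with points for limma estimates and bars for 95% confidence intervals from 3 arrays a group; dotted lines mark 1.5-fold. Every bar but that of Pttg1 stays between the dotted lines, and 41 points lie below 0.

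Arrays of the 2 groups did not overlap for 3 of the 47 genes, Cenpa, Mad2l1 and Cdk1, all lower in the mutants. This is 6.38%, where 2.85% of all genes were lower without overlap, and no mitosis gene was higher without overlap, where 7.69% of all genes were.

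The spindle assembly checkpoint was represented by 5 genes, 4 with a difference below 0. Mad2l1 (Entrez 56150) encodes Mad2, the protein that binds and holds back Cdc20 while a kinetochore is unattached. Its log2 values were 11.49, 11.57 and 11.49 in controls 1 to 3 and 11.30, 11.45 and 11.37 in mutants 1 to 3. All 3 mutants were below all 3 controls, and the log2 difference was -0.14 (95% interval -0.287 to 0.003, limma adjusted p = 0.850). Bub1b, the gene of the checkpoint protein BubR1, read 10.48, 10.37 and 10.43 in controls and 10.51, 10.33 and 10.43 in mutants, a difference of 0.001 on the log2 scale. The mutants reached past the controls at both ends. Ttk, the gene of the kinase Mps1 that starts checkpoint signalling, read 9.39, 9.33 and 9.39 in controls and 9.56, 9.36 and 9.04 in mutants. Mutants 1 and 3 lay on opposite sides of the controls, and the log2 difference was -0.05 with a 95% interval of -0.32 to 0.22. Bub1 and Bub3, the partner genes at the kinetochore, differed by -0.09 and -0.03 on the log2 scale.

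Of the kinases, cyclins and phosphatases that start mitosis, 9 were measured and 7 had a difference below 0. Cdk1 (Entrez 12534), the kinase that drives entry, read 11.35, 11.33 and 11.37 in controls and 11.29, 11.23 and 11.31 in mutants. The groups did not overlap but lay close together, differing by -0.07 ± 0.06 on the log2 scale (SE; limma adjusted p = 0.9995). Ccnb2 and Ccna2, the cyclin partners of Cdk1, differed by -0.08 and -0.07 on the log2 scale. Plk1, the polo-like kinase of centrosome maturation and cytokinesis, read 11.39, 11.24 and 11.24 in controls and 11.45, 11.28 and 11.14 in mutants, a difference of 0.002. Foxm1, the forkhead factor that activates many G2 and mitotic genes, read 10.48, 10.22 and 10.27 in controls and 10.31, 10.19 and 10.09 in mutants. Control 1 stood highest, the groups overlapped, and the log2 difference was -0.13 (95% interval -0.33 to 0.07, limma adjusted p = 0.9995). It was -0.047 without control 1 and -0.073 without mutant 3, but -0.178 without control 2 and -0.182 without mutant 1. Cdc25b, a phosphatase gene that removes the brake on Cdk1, had the second-highest difference of the 47 genes, 0.10 on the log2 scale, and its groups overlapped too. Aurka and Nek2, kinase genes of the centrosome, and Cdc25c, a second Cdk1 phosphatase gene, differed by -0.06, -0.05 and -0.06.

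Among 5 genes of anaphase and mitotic proteolysis, 4 had a difference below 0. Ube2c (Entrez 68612), the ubiquitin-conjugating enzyme gene of the anaphase-promoting complex, read 10.97, 10.93 and 10.85 in controls and 10.83, 10.87 and 10.67 in mutants. The top mutant was just above the bottom control, and the log2 difference was -0.13 (95% interval -0.29 to 0.04, limma adjusted p = 0.990). Cdc20, the activator that the checkpoint restrains, read 10.59, 10.48 and 10.48 in controls and 10.61, 10.45 and 10.43 in mutants, a difference of -0.02. Cdca3, whose product promotes destruction of the mitosis inhibitor Wee1, and Espl1, the separase gene that cuts cohesin, differed by -0.08 and -0.03.

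Pttg1 (Entrez 30939), the securin gene whose product restrains separase until anaphase, varied far more than the rest. Its log2 values were 9.54, 8.28 and 8.42 in controls 1 to 3 and 9.98, 8.15 and 9.45 in mutants 1 to 3. Control 1 and mutants 1 and 3 were high and the other 3 arrays low, so the split ran across the genotypes. The range was 1.83 on the log2 scale, or 3.56-fold, while no other gene of the list exceeded 0.52 and the median range was 0.25. Its difference of 0.45 between the groups had a 95% interval of -0.606 to 1.502 (limma adjusted p = 0.9995). The median over the list was -0.06 with or without Pttg1.

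Centromere and kinetochore structure was covered by 9 genes, 8 with a difference below 0. Cenpa (Entrez 12615), the histone H3 variant that marks the centromere, read 10.53, 10.57 and 10.48 in controls and 10.39, 10.40 and 10.40 in mutants. The 3 mutants were nearly alike and below every control. The difference was -0.13 ± 0.06 (SE), with a limma adjusted p of 0.819. Its 95% interval of -0.260 to -0.002 was the only 1 of the 47 that did not reach 0. Cenpe, a microtubule motor of the kinetochore, had the lowest difference of the list, -0.16 on the log2 scale, with 10.32, 9.96 and 10.12 in controls and 10.00, 9.90 and 10.03 in mutants. Control 1 was the highest array and the groups overlapped. Without control 1 the Cenpe difference was -0.065, closer to 0 than those of Mad2l1 (-0.156) and Cenpa (-0.130) in the same fit. The Cenpe difference was -0.243 without control 2. Ndc80, which binds microtubules directly, read 9.26, 9.04 and 9.13 in controls and 9.15, 8.90 and 8.99 in mutants. The Ndc80 difference was -0.13 (95% interval -0.33 to 0.06), -0.076 without control 1 or without mutant 2, and -0.203 without mutant 1. The Ndc80 complex partners Nuf2, Spc24 and Spc25 differed by -0.05, -0.05 and -0.07. Cenpf, a large outer kinetochore protein, differed by -0.12, and Cenph and Cenpi, of the inner kinetochore, by -0.05 and 0.01.

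The chromosomal passenger complex corrects faulty attachments and later marks the site of division. All 4 of its genes lay slightly below 0, between -0.055 and -0.035 on the log2 scale. Aurkb, its kinase, read 11.59, 11.54 and 11.51 in controls and 11.47, 11.56 and 11.44 in mutants. Birc5, its survivin subunit, read 8.79, 8.52 and 8.65 in controls and 8.65, 8.54 and 8.60 in mutants. The groups overlapped for both, and the difference of Birc5 was 0.015 without control 1 and -0.121 without control 2. Incenp, the scaffold, and Cdca8, the borealin gene, were at -0.05 and -0.03.

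All 8 genes of the spindle and of cytokinesis had differences below 0, from -0.126 to -0.041. Aspm, a spindle pole gene whose loss causes small brains, read 10.15, 9.84 and 9.94 in controls and 9.96, 9.73 and 9.86 in mutants, a log2 difference of -0.13 (95% interval -0.34 to 0.09). Control 1 was the highest of the 6 arrays and the groups overlapped. The Aspm difference was -0.038 without control 1 and -0.065 without mutant 2, but -0.195 without control 2 and -0.182 without mutant 1. Tpx2, the activator of Aurora A on the spindle, read 10.87, 10.75 and 10.82 in controls and 10.80, 10.74 and 10.71 in mutants, a difference of -0.07. Nusap1, a microtubule bundling protein gene, read 11.57, 11.46 and 11.51 in controls and 11.48, 11.44 and 11.32 in mutants, a difference of -0.10. Anln, the anillin gene of the cleavage furrow, read 9.88, 9.80 and 9.96 in controls and 9.84, 9.71 and 9.79 in mutants, also -0.10. For both genes the top mutant lay above the lowest control. Hmmr, a spindle-associated protein gene, differed by -0.06. Prc1, Racgap1 and Ect2, which build the midzone and direct the furrow, differed by -0.05, -0.04 and -0.06.

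Of 7 genes for chromosome structure, 6 lay below 0. Mki67 (Entrez 17345), which encodes Ki-67, the coat protein of mitotic chromosomes used as a marker of dividing cells, read 12.07, 11.63 and 11.76 in controls and 11.71, 11.59 and 11.71 in mutants. Control 1 stood apart from the other 5 arrays, and the genotypes differed by -0.15 ± 0.11 on the log2 scale (SE; 95% interval -0.39 to 0.10, limma adjusted p = 0.9995). Without control 1 the Mki67 difference was -0.024, and without control 2 it was -0.243. Top2a, the topoisomerase that untangles sister chromatids, read 11.79, 11.55 and 11.67 in controls and 11.64, 11.58 and 11.64 in mutants. Its difference was -0.05, and it was 0.011 without control 1 and -0.107 without control 2. A second Top2a probe set, between 4.31 and 4.61 on all arrays, also differed by -0.05. Smc4, a condensin ATPase, read 11.23, 11.20 and 11.16 in controls and 11.17, 11.20 and 11.06 in mutants, a difference of -0.06. The other condensin genes Smc2, Ncapg and Ncaph differed by -0.08, -0.06 and -0.08, and Ncapd2 by 0.02.

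Embryos of 1 genotype also differed from each other. Control 1 was the highest of all 6 arrays for 26 of the 47 genes and above the gene's own mean for 44 of them, where it was above the mean for 50.5% of all genes. Mutant 3 was the lowest array for 23 genes and below the mean for 40, although it was above the mean for 59.2% of all genes. Across the list, control 1 exceeded controls 2 and 3 by medians of 0.106 and 0.10, and control 2 was below control 3 by a median difference of -0.050. Mutant 1 exceeded mutants 2 and 3 by medians of 0.065 and 0.109, and mutant 2 exceeded mutant 3 by 0.050. These are gaps between single arrays, while the median of -0.06 between genotypes is between means of 3 arrays. Without control 1 the median was -0.037 with 37 of 47 genes below 0, and without mutant 3 it was -0.035 with 31 of 47. Without control 2 or 3 the median was -0.071 or -0.063, with 44 or 43 genes below 0. Without mutant 1 or 2 it was -0.091 or -0.062, with 44 or 40.

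**Figure D3:**
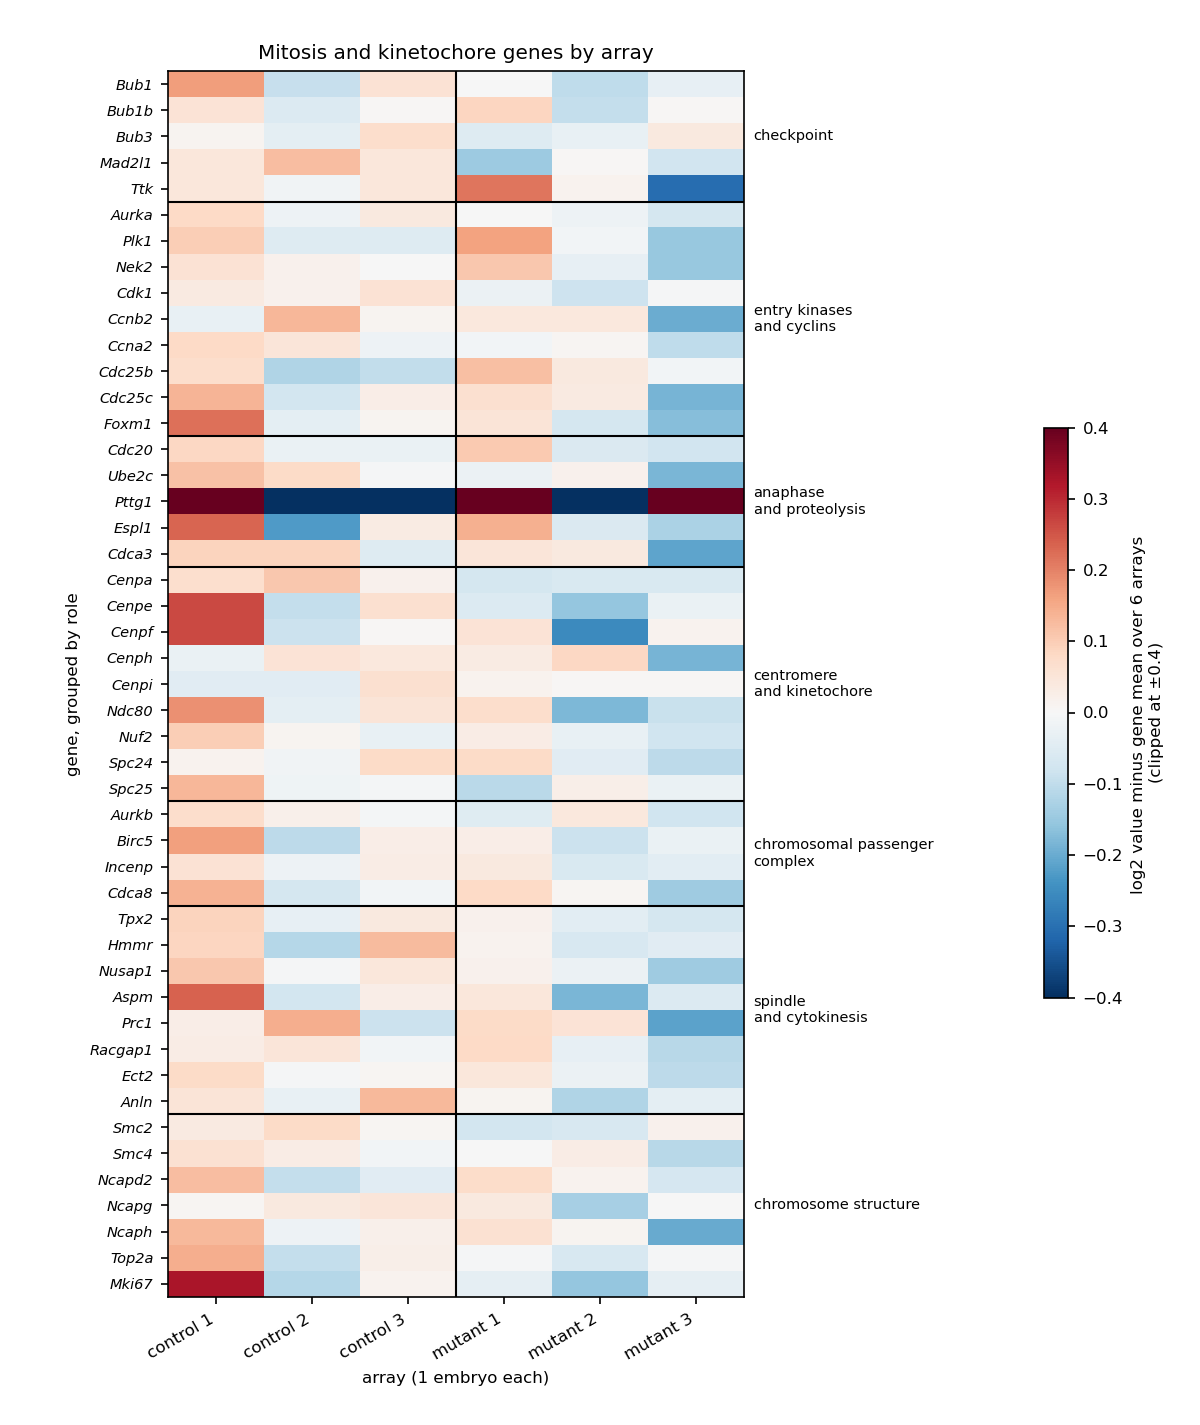
Log2 value minus the gene's mean over the 6 arrays (colour, clipped at 0.4 either way) for 47 genes (rows, grouped by role) in each array (columns, 3 controls and 3 mutants). Control 1 is mostly red and mutant 3 mostly blue, and Pttg1 splits the arrays 3 to 3 across the genotypes.

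A score for each array, the median over the 47 genes of the value minus the gene's mean, was 0.087, -0.025 and 0.015 in controls 1 to 3 and 0.036, -0.034 and -0.072 in mutants 1 to 3. The controls had a mean score of 0.026 ± 0.057 and the mutants one of -0.024 ± 0.055 (SD over 3 arrays). The groups overlapped, and the difference between the means, -0.049, was smaller than either SD.

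Marker lists of the cell types in the tissue were scored in the same way, and in bulk tissue fewer cells of a type and less RNA per cell cannot be told apart. Radial glia, by 12 of 12 markers, scored 0.046, -0.008 and 0.001 in controls and 0.041, -0.028 and -0.082 in mutants. Control 1 was thus the highest and mutant 3 the lowest array, as for the mitosis genes. The mean log2 level of the radial glia markers was 10.94 to 10.99 in controls and 10.86 to 10.95 in mutants. Of these 12 markers 9 had a difference below 0 and 3 above, and none passed the threshold. The lowest was Hopx at -0.43 (limma adjusted p = 0.163). Postmitotic neurons, by 12 of 12 markers, scored -0.067, -0.039 and 0.029 in controls and -0.061, 0.021 and 0.066 in mutants, with control 1 the lowest and mutant 3 the highest array. Their mean level was 11.01 to 11.14 in controls and 11.07 to 11.17 in mutants. Intermediate progenitor markers, 9 of 9, scored -0.074 to 0.026 in controls and -0.006 to 0.108 in mutants, with a mean level of 10.60 to 10.69 and 10.74 to 10.83. Of the 9, 1 rose, Neurod4, by 0.66 (limma adjusted p = 0.0294), and 2 had a difference below 0. The part of these cell types in the mitosis scores was not tested.

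Blood and vessel cells can also add dividing cells. Of 11 erythroid markers 10 were measured and 6 rose, with a mean log2 level of 7.33 to 7.45 in controls and 8.45 to 8.56 in mutants. This mean leaned on the globin gene Hbb-bh1, with a difference of 5.02, while the median difference of the 10 was 0.64. The erythroid transcription factors Klf1 and Gata1 differed by 0.11 and 0.01. Markers of pericytes and meninges, 10 of 10, had a mean level of 7.16 to 7.28 in controls and 7.40 to 8.19 in mutants, highest in mutant 1. This mean leaned on Dcn and Lum, with differences of 2.09 and 0.91. Of the 10 differences 9 were above 0, but Rgs5, Kcnj8 and Cspg4 were at 0.05, -0.02 and 0.06. Endothelial markers, 7 of 7, had a mean level of 8.31 to 8.56 in controls and 8.39 to 8.79 in mutants, and microglial markers, 7 of 7, of 7.08 to 7.26 and 7.37 to 7.50. Ganglionic eminence markers, 9 of 9, had a mean level of 8.19 to 8.35 in controls and 8.30 to 8.46 in mutants. These 4 lists had no gene past the threshold. The part of these cells in the mitosis values was not tested either.

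**Figure D4:**
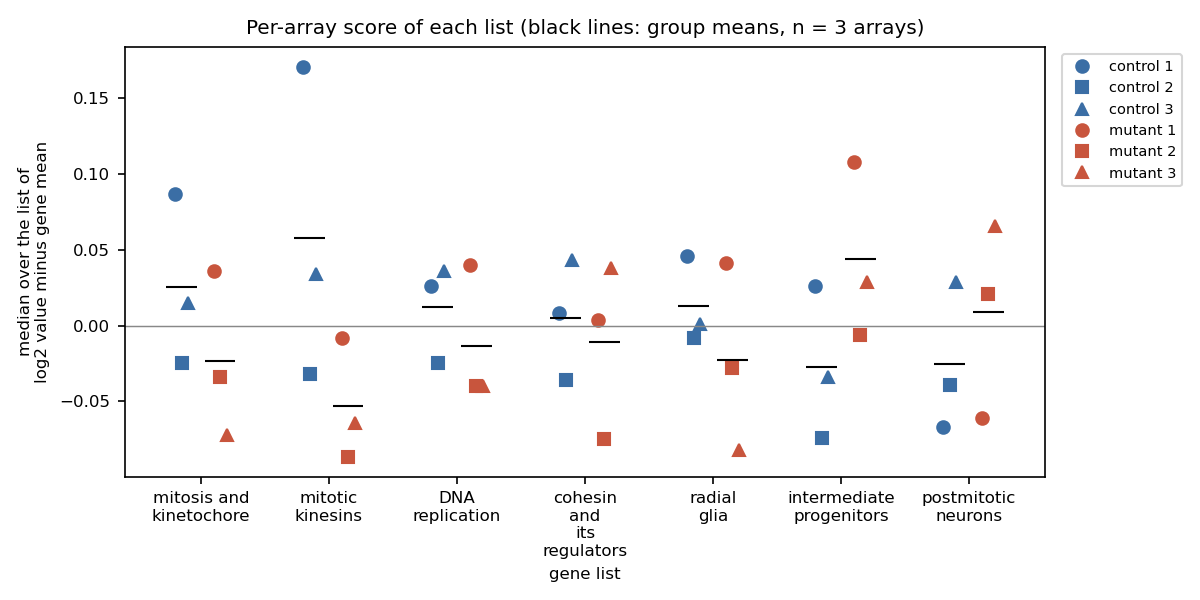
Per-array score (y axis, median over the list of log2 value minus gene mean) for the mitosis and kinetochore genes and 6 other lists (x axis); symbols are single arrays, blue for controls and red for mutants, and black lines are group means of 3 arrays. The groups overlap for the mitosis genes, where control 1 is at 0.087 and mutant 3 at -0.072, and the neuron list has these arrays in the reverse order.

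Other genes of the mitotic machinery were set beside the list, and none of them passed a limma adjusted p under 0.05 (from 0.462 upward). This does not show that they were unchanged. The 95% intervals, unadjusted for the number of genes, lay below 0 for Cenpw, Haus1, Kif14, Kif4, Mcm3 and Tyms, and above 0 for none. The Cenpw interval was -0.47 to -0.06 and that of Mcm3 -0.38 to -0.07. Mitotic kinesins, the motors that build the spindle, had differences below 0 for 11 of 11 genes with a median of -0.104, led by Kif14 at -0.22 and Kif4 at -0.14. Of 30 further kinetochore genes, 22 were below 0 with a median of -0.04; Cenpw and Cenpk, of the inner kinetochore, were at -0.26 and -0.19. Of 23 centrosome and spindle pole genes, 19 were below 0 with a median of -0.049; Haus1, of the augmin complex, was at -0.18 and Cep55, of the final cut between daughter cells, at -0.12. Of 14 genes of mitotic entry control, 11 were below 0 with a median of -0.043, and the Cdk-binding proteins Cks1b and Cks2 were both at -0.11. DNA replication genes, active in the S phase before, were below 0 for 20 of 24 with a median of -0.039. The helicase subunit Mcm3 was at -0.22 and the thymidylate synthase Tyms at -0.15. Of all genes, 39.7% were below 0. Scores overlapped between the groups here too. Kinesins scored 0.171, -0.032 and 0.034 in controls and -0.008, -0.087 and -0.064 in mutants. Replication genes scored 0.026, -0.025 and 0.036 in controls and 0.040, -0.040 and -0.040 in mutants.

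The remaining lists of the mitotic machinery gave medians near that of all genes. Cohesin and its regulators had 5 of 16 differences below 0 and a median of 0.013, and the 2 genes with the lowest p were the shugoshins Sgo2a and Sgo1, guardians of centromeric cohesion, at -0.13 and -0.11. The anaphase-promoting complex had 8 of 17 below 0 and a median of 0.00, with Anapc15 at -0.17 and Anapc7 at 0.09. Factors of the B-Myb and DREAM complexes, which bind the CHR, had 4 of 12 below 0 and a median of 0.025; Tfdp2, a partner of E2F factors, was at 0.14 and the histone-binding Rbbp4 at 0.10. Differences between these lists were not tested.

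The list was also divided by its motifs. The 29 genes with a CHR match had a median log2 difference of -0.063, and the 10 genes without one had -0.054. The 27 genes with both motifs had a median of -0.06 with 23 below 0. Outside the list, 1174 genes with both motifs had a median of 0.01 with 44.8% below 0, and 14401 genes without both had 0.02 with 38.6% below 0.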

How the data were processed

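The deposited values are log2 expression values that the authors made with Affymetrix Expression Console and RMA, per the submitters' processing notes; the log2 scale was taken from RMA and from the range of values, 3.41 to 13.8. RMA includes quantile normalization, which hides a shift of most genes, and compresses differences of dim genes. Versions and the array's genome build are not stated in the sources used here. Array medians were 7.23 to 7.33.

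Of 35556 probe sets, 21789 had 1 gene symbol in GEO's platform annotation, 1621 several and 12146 none. Of the single symbols, 21698 matched RefSeq by Entrez number and 0 were updated. The genotypes were compared with limma 3.58.1 (R 4.3.3; lmFit, eBayes, no covariate), with Benjamini-Hochberg adjustment over all 19938 genes and a threshold of 0.05; p-values are two-sided. The fit was tested on simulated data. The genes and lists were chosen with earlier results of these data known, so list counts and medians carry no test. Every measured gene of the list was given; values per array were given for the 8 lowest p-values and for anchors of each role, and Pttg1 was added after its values were seen. Of each further list, the 2 genes with the lowest p were named. The alternatives were scaling, probe set choice, a filter at the 25th percentile, array weights, the prior, the replicate number and leaving out each array.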

Additional observations from a re-analysis of the deposited data

How the results depend on the processing

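None of the 47 genes passed in any of the 13 alternative fits, with a lowest adjusted p of 0.222 (Cenpa, array weights). At an unadjusted p under 0.05, 1 passed in the main fit and 0 to 3 in the alternative fits. The median of the list stayed below 0, between -0.099 with median centring and -0.035 without mutant replicate 3, and 31 to 45 genes were below 0. The count over all genes was 57. It was 217 with array weights, 34 in a fit with a replicate block (29 of them among the 57), 87 with a trended, robust prior, 1207 at an unadjusted p under 0.05, and 20 to 50 when 1 array was left out. The lowest counts came without control replicate 2 (20), mutant replicate 2 (20), mutant replicate 1 (25) and mutant replicate 3 (33). Same-numbered arrays deviated together with correlations of 0.0282, -0.142 and 0.0835, and 1 of 6 arrays correlated best with its own number, so the numbers were not taken to pair the embryos. Near-zero differences turned: with median centring and quantile normalization Bub1b was at -0.037 and -0.019 and Plk1 at -0.037 and -0.014, and with array weights Birc5 was at 0.004 and Top2a at 0.008. With 1 array left out, Bub1b ranged from -0.040 to 0.047, Plk1 from -0.077 to 0.077, Cdc20 from -0.076 to 0.019, Birc5 from -0.121 to 0.015, Top2a from -0.107 to 0.011 and Ttk from -0.172 to 0.088; the cause was not tested. The other differences of named genes, 242 of 260, kept their sign and call but not always their size: with array weights Mki67 was at -0.062, Cenpe at -0.079 and Foxm1 at -0.073. With median centring these genes were at -0.187, -0.196 and -0.164. For arrays, their number limits the precision.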
